A study of Mus musculus with 18 samples.

Results

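The 10 genes described here are markers of Kupffer cells and other macrophages, read in the livers of mice on a regular or a high-fat diet. They were taken by symbol from the deposited table, in which all 10 were found among 19057 lines. All 10 also passed the filter on low values, which asked for 3 or more livers with an RPKM of 1 or more and left 10507 genes for the tests. RPKM counts reads per kilobase of gene, scaled to the size of the library, so that levels can be set side by side between genes.

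Kupffer cells are the resident macrophages of the liver. They sit in the sinusoids, where blood from the gut first meets the liver, and take up bacteria, bacterial products, old red cells and modified lipoproteins. In mice, Clec4f (a C-type lectin receptor), Vsig4 (a complement receptor), Timd4 (a receptor for the phosphatidylserine of dying cells), Cd5l (a secreted protein that binds lipids) and Marco (a scavenger receptor for bacteria) are read mainly as Kupffer cell genes within the liver. Adgre1 (F4/80) and Cd68 (a lysosomal glycoprotein) mark macrophages at large, Csf1r is the receptor for the growth factor on which macrophages depend, Lyz2 encodes lysozyme M of macrophages and neutrophils, and Cd14 is a co-receptor for lipopolysaccharide (LPS). In diet-induced fatty liver, resident cells can be lost and replaced by monocyte-derived macrophages, which lack Timd4 at first.

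The study asked how the gut microbiota of mice given alginate oligosaccharides (AOS) acts on mice fed a high-fat diet (HFD). All livers were from ICR mice of 10 weeks of age, with 3 livers in each of 6 groups. Con mice were, by the methods, fed the regular diet and given saline, AOS mice were given AOS at 10 mg/kg, HFD mice had the high-fat diet with saline, and HFD+AOS mice had the high-fat diet and AOS at 10 mg/kg. Con-FMT and A10-FMT mice had the high-fat diet and fecal microbiota transplantation (FMT), given by mouth, of pooled small intestinal content from control donors or from donors dosed with AOS at 10 mg/kg. The methods describe male mice. They describe AOS-dosed donors, which were younger than these mice, and no HFD+AOS group, and whether the AOS livers came from a like experiment is not given in the sources used here. The label of the AOS livers names no diet, and they are taken here as on the regular diet. In whole liver, fewer macrophages and less RNA of a gene per macrophage cannot be told apart.

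Some livers stood apart, and this touches several results. For genes that differed at least 1 log2 unit between the first and second livers of a group, the third Con liver lay between them for 98.0% of 148 genes and the third AOS liver for 96.5% of 142 genes. A weighted mean of the other 2 livers came within a median of 0.07 log2 units of Con 3 and 0.08 of AOS 3, against 0.34 to 0.59 in the 4 other groups. Con 3 lay between Con 1 and Con 2 for 9 of the 10 markers, and AOS 3 between AOS 1 and AOS 2 for 5 of them. In most comparisons that use these livers, fitted values without them are given for some of the markers. For the genes of the other lists, such fitted values are not given. The spread was estimated from all livers together, so Con 3 and AOS 3 also enter the tests of the other comparisons. The third HFD liver was high in macrophage genes, as described below. From the steps between low values, 1 RPKM stood for about 12.5 reads for each kilobase of a gene (quartiles over 58 sparsely read genes 9.55 and 13.8), so that the lowest Marco value stood for about 14.9 reads, the lowest Timd4 value for 22.6 and the lowest Clec4f value for 422.

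All 10 markers were read in every liver. Over the 18 livers, Cd5l had the highest median level (24.5 RPKM), followed by Clec4f (19.99), Lyz2 (16.4), Vsig4 (9.20), Csf1r (5.88), Cd68 (5.38), Adgre1 (2.04), Timd4 (1.86), Marco (1.64) and Cd14 (1.58). The highest liver was 2.30 times the lowest for Cd68 and 2.41 times for Clec4f, but 5.58 times for Marco and 14.6 times for Cd14. The AOS group had the highest mean for 7 of the 10 genes, and Con-FMT the lowest for 5 and A10-FMT for 3. These orders were loose. Of 50 pairs of groups that were neighbours in the order of a gene, 2 had ranges that did not overlap, namely AOS above Con for Timd4 and AOS above HFD+AOS for Vsig4.

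**Figure D1:**
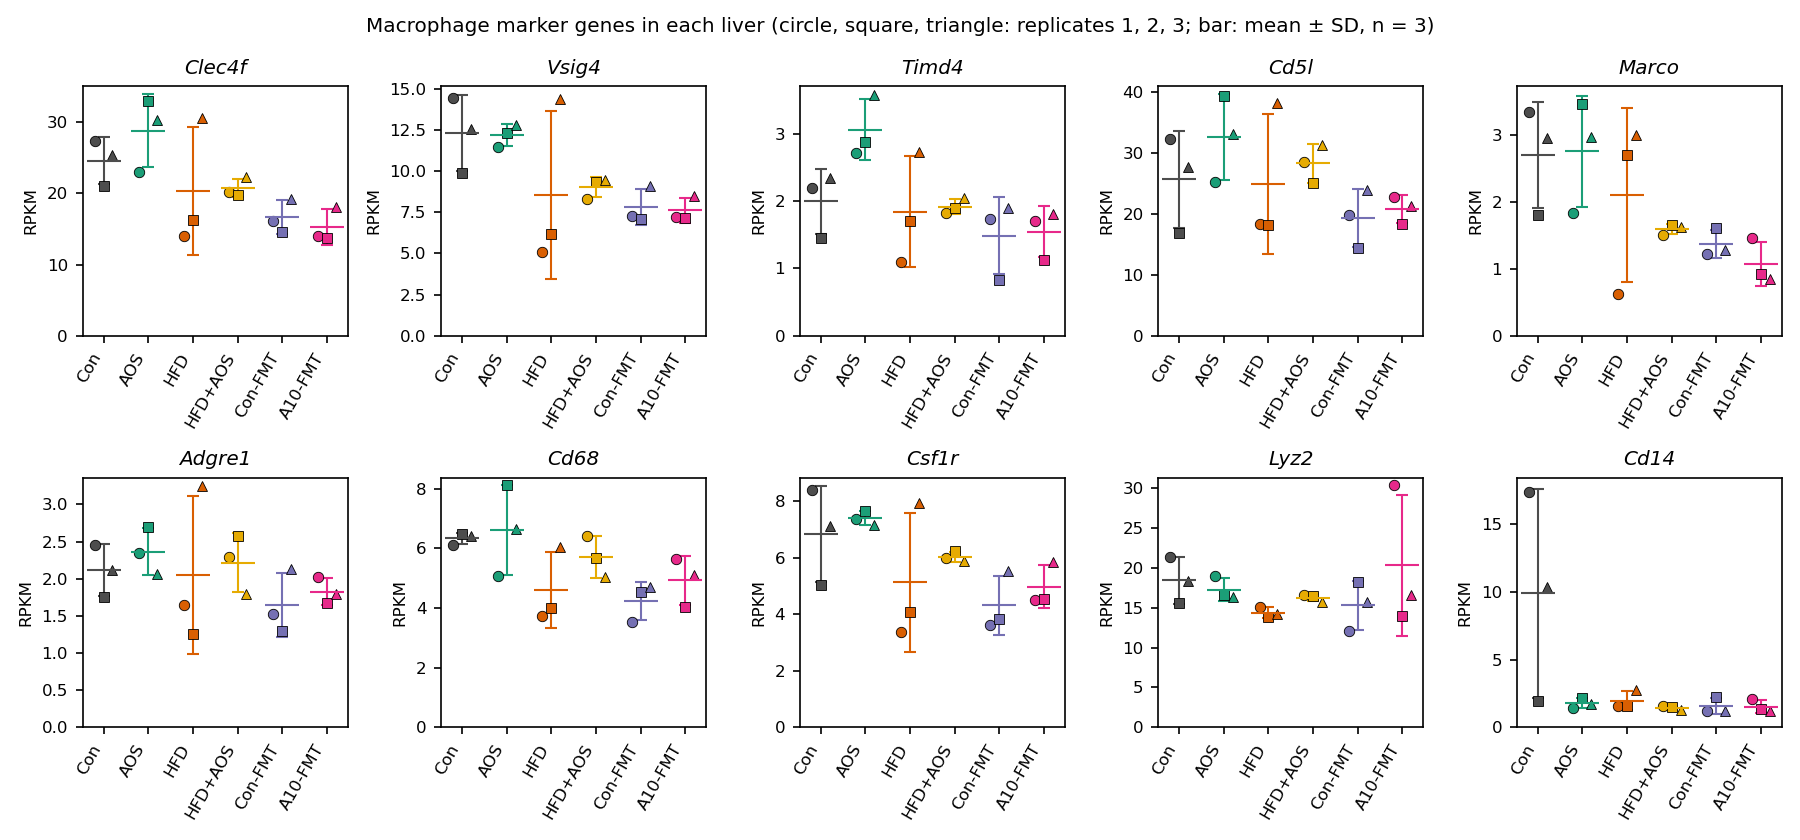
RPKM of the 10 markers in each liver (y axis, linear from 0, one panel a gene) by group (x axis), with circle, square and triangle for replicates 1, 2 and 3 and a bar for the mean ± SD of 3 livers. The HFD group is wide for most genes because HFD 3 is high (Vsig4 14.4 RPKM against 5.07 and 6.21), Lyz2 is highest in the first A10-FMT liver (30.4 RPKM), and Cd14 in Con 1 and Con 3 (17.4 and 10.4 RPKM).

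Across the 18 livers 8 of the markers went up and down together. Without Lyz2 and Cd14, the 28 pairs of genes had Pearson correlations of log2(RPKM + 1) from 0.46 (Marco and Adgre1) to 0.94 (Vsig4 and Csf1r), with a median of 0.78. After the mean of each group was taken away, the correlations of these pairs went from 0.34 to 0.95 with a median of 0.70. The livers of HFD carried much of the spread behind these values. The median SD of the markers was 0.51 log2 units in HFD and from 0.09 to 0.25 in the other groups. Whether the pairs also went together within the groups other than HFD was not tested. Lyz2 had correlations from 0.0030 to 0.40 with the other 9 genes, and Cd14 from 0.21 to 0.59. Lyz2 and Cd14 were set apart by these same correlations, so the higher values of the other 8 follow in part from that choice. The split was not sharp, as Cd14 reached 0.59 with Marco, above the 0.46 of Marco and Adgre1. The points share libraries and depth, and genes in a library are not independent of each other.

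The genes outside the set whose pattern was most like the mean of the 10 markers were C1qa (r = 0.97 over 18 livers), C1qc (0.95), Ctss (0.95), C1qb (0.94) and Siglece (0.93). C1qa, C1qb and C1qc encode the chains of complement C1q, Ctss the lysosomal protease cathepsin S and Siglece a sialic acid-binding receptor of myeloid cells. C1qa went from 14.2 RPKM to 40.4 RPKM, with a median of 24.3. For Clec4f alone the most alike genes were Adgre4 (0.95), Sdc3 (0.94) and C1qc (0.93). Without Con 3 and AOS 3 all these correlations were still between 0.92 and 0.97 over 16 livers.

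**Figure D2:**
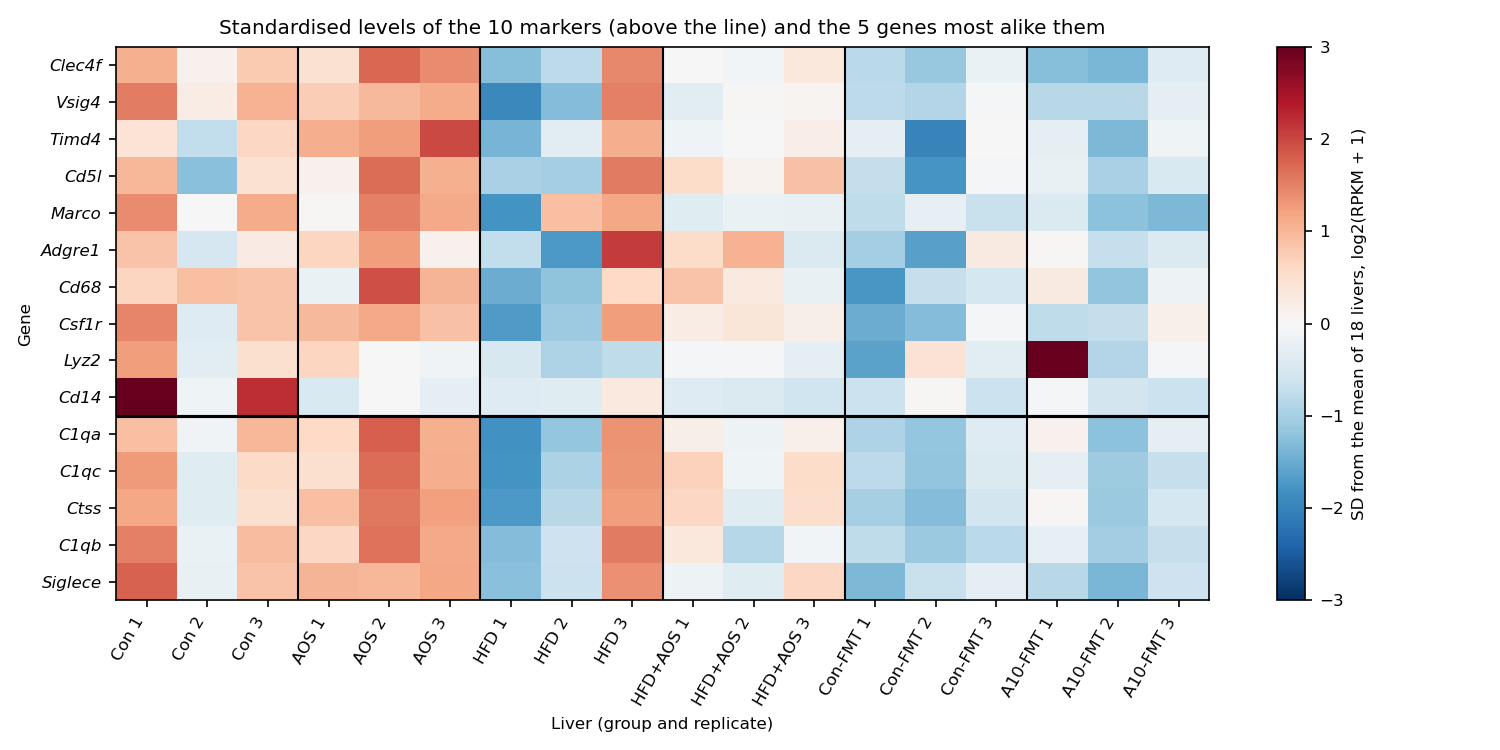
Colour gives, for each gene (rows) and liver (columns), the number of SD by which log2(RPKM + 1) lies above (red) or below (blue) the mean of 18 livers, for the 10 markers and, under the thick line, the 5 genes most like their mean. HFD 1 and HFD 2 are mostly blue and HFD 3 is mostly red, while the HFD+AOS livers are pale, and Lyz2 and Cd14 keep to their own patterns.

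Because the Kupffer cell genes moved together, the 250 bases before the RefSeq start sites (GRCm38 build) were read for 7 of the markers. Short sequences were looked for on both strands, and 5 of them are given here. GAGGAA, the core bound by PU.1 (the myeloid factor encoded by Spi1), was in 4 of the 7 promoters, those of Vsig4, Cd5l, Marco and Cd68, and in 23.3% of all 32851 promoters. GGAAGTG, bound by ETS factors, was in 2 of the 7 (Vsig4 and Timd4), where it overlapped no GAGGAA, and in 8.55% of all. The longer GAGGAAGT, TGACCTTTG of nuclear receptors and a site of NF-kappaB were in 0 of the 7, and in 2.44%, 0.426% and 0.0335% of all promoters. These matches describe the letters of a window and say nothing of binding.
Promoters of 3 of these genes are shown, chosen since they begin at the same place in RefSeq and GENCODE, with the PU.1 core, on either strand, in capitals. They are chrX:96293439-96293688 on the minus strand for Vsig4, chr3:87357631-87357880 on the plus strand for Cd5l and chr1:120505025-120505274 on the minus strand for Marco, each 5′ to 3′ in the direction of its gene.
Vsig4: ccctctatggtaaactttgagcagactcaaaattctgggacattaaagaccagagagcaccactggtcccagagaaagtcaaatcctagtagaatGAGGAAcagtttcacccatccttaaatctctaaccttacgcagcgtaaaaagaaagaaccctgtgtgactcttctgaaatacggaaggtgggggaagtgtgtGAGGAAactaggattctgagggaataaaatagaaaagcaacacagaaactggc
Cd5l: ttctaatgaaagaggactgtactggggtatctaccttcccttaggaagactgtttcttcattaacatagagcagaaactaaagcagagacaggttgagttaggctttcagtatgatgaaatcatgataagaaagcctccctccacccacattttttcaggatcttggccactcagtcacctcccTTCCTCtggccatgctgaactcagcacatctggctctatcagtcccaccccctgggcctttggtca
Marco: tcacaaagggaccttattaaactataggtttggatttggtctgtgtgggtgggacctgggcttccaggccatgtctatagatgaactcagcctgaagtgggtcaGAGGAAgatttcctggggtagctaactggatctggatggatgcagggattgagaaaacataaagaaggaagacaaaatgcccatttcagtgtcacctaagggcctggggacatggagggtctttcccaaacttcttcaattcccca
GAGGAA stands 2 times before Vsig4, once before Marco and, on the other strand, once before Cd5l.

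HFD compared with Con asks what the diet did by itself. Clec4f was 27.4, 21.0 and 25.4 RPKM in the Con livers and 14.1, 16.2 and 30.5 in the HFD livers. HFD 1 and HFD 2 lay below every Con liver and HFD 3 above every Con liver. The fitted log2 fold change of HFD against Con was -0.34 (SE 0.21, limma adjusted p = 0.473). Vsig4 was 14.5, 9.86 and 12.6 RPKM in Con and 5.07, 6.21 and 14.4 in HFD, with a log2 fold change of -0.59 (SE 0.24, adjusted p = 0.251). Marco was 3.34, 1.81 and 2.96 RPKM in Con and 0.62, 2.70 and 3.01 in HFD (-0.34, SE 0.27). The groups overlapped for these 3 receptors. Timd4 was 2.19, 1.45 and 2.34 RPKM in Con and 1.10, 1.70 and 2.73 in HFD (log2 fold change -0.10, SE 0.20), and Cd5l differed by as little (-0.08, SE 0.27).

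Among the general macrophage genes, Cd68 was 6.12, 6.48 and 6.4 RPKM in Con and 3.74, 4 and 6.06 in HFD, so that the groups did not overlap, with a log2 fold change of -0.41 (SE 0.16, adjusted p = 0.240). Lyz2 did not overlap either, at 21.4, 15.5 and 18.3 RPKM in Con and 15.1, 13.8 and 14.3 in HFD (-0.33, SE 0.20, adjusted p = 0.462). For comparison, 4.67% of all genes tested lay wholly lower in HFD than in Con. Csf1r had a log2 fold change of -0.40 (SE 0.21) and Adgre1 of -0.08 (SE 0.18). In all, 0 of the 10 markers passed the test against 0.381% of all genes tested, and 3 of the 10 (Vsig4, Cd68 and Cd14) had an unadjusted p under 0.05, as had 15.4% of all genes. The 10 fitted log2 fold changes were all below 0 with a median of -0.34, while the median of all genes tested was 0.05 and 37.5% of them were below 0. The sign held in 9 of 13 other ways of processing for Cd5l, in 11 of 13 for Adgre1, and in 12 of 13 each for Marco and Timd4. Without Con 3 and AOS 3 the values were -0.31 for Clec4f, -0.56 for Vsig4, -0.41 for Cd68 and -0.32 for Lyz2, and 0 of the 10 passed.

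Several of these values moved with single livers. HFD 3 was the highest of the HFD livers for 9 of the 10 markers, which was so for 27.6% of all genes tested. It was 2.55 times the mean of HFD 1 and HFD 2 for Vsig4, 2.24 times for Adgre1, 2.13 times for Csf1r, 2.10 times for Cd5l, 2.02 times for Clec4f and 1.57 times for Cd68, but 0.986 times for Lyz2. The median SD of the markers was 0.51 log2 units in HFD and 0.09 in HFD+AOS, against 0.13 and 0.11 for all genes tested. The summed level of the 10 markers was 64.6, 69.7 and 123 RPKM in the HFD livers, while that of 8 markers of sinusoidal endothelium was 61.5, 55.8 and 62.6, that of 8 stellate cell markers 91.6, 91.8 and 105, and that of 6 hepatocyte markers 47419, 46628 and 57833. HFD 3 was the highest of the 3 in these sums too, by less. Blood genes summed to 3247, 1372 and 1215 RPKM in the same livers. The part of these cells in the marker values was not tested. Without HFD 3, the log2 fold change of HFD against Con was -0.99 for Vsig4, which then passed the test (adjusted p = 0.0178), -0.66 for Clec4f (0.133), -0.71 for Csf1r (0.124) and -0.32 for Timd4 (0.509). The label and the methods gave no ground to leave it out. Without HFD 1, Marco was at 0.08 (SE 0.19) in place of -0.34, and Timd4 at 0.10 (SE 0.20).

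The same diets can be compared in livers of mice that were given AOS. This comparison, of HFD+AOS with AOS, was added after the values had been seen, and it shares no liver with that of HFD and Con. Clec4f was 23.0, 33.0 and 30.3 RPKM in AOS and 20.2, 19.8 and 22.2 in HFD+AOS. Vsig4 was 11.5, 12.3 and 12.8 RPKM in AOS and 8.33, 9.31 and 9.46 in HFD+AOS. Timd4 was 2.72, 2.88 and 3.57 RPKM in AOS and 1.82, 1.89 and 2.04 in HFD+AOS. The HFD+AOS livers lay wholly below the AOS livers for these 3 genes and for Marco and Csf1r, that is for 5 of the 10 markers, which was so for 17.1% of all genes tested.
The fitted log2 fold changes were -0.44 (SE 0.21) for Clec4f, -0.40 (SE 0.24) for Vsig4, -0.47 (SE 0.20) for Timd4, -0.51 (SE 0.27) for Marco and -0.26 (SE 0.21) for Csf1r. They were below 0 for all 10 markers with a median of -0.23, against a median of -0.03 for all genes tested, of which 56.6% were below 0. The count past the test was 0 of 10 by limma (5.44% of all genes tested), with Timd4 at an unadjusted p under 0.05, as were 20.5% of all genes. With the AOS and HFD+AOS livers alone in the fit, Vsig4 (adjusted p = 0.0276) and Timd4 (0.0326) passed it, that is 2 of 10, against 6.89% of all genes tested. Without Con 3 and AOS 3, Clec4f was at -0.40, Vsig4 at -0.36, Timd4 at -0.38 and Marco at -0.46, and 0 of the 10 passed.

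A comparison of all 12 livers of the high-fat diet (4 groups) with the 6 Con and AOS livers was also added, after the 7 planned comparisons had called 0 of the 10 markers. It sets the mean of 4 group means against the mean of 2, and so mixes the diet with AOS and FMT. In it 6 of the 10 markers passed the test, all lower on the high-fat diet, where 5.74% of all genes tested were called lower and 12.9% in either direction.
Clec4f had a lowest, median and highest level of 21.0, 26.4 and 33.0 RPKM without the high-fat diet and of 13.7, 17.2 and 30.5 RPKM with it, and fell by 0.55 on the log2 scale (SE 0.13, limma adjusted p = 0.0122). Vsig4 went from 9.86, 12.4 and 14.5 RPKM to 5.07, 7.82 and 14.4, also falling by 0.55 (SE 0.15, adjusted p = 0.0216). Marco went from 1.81, 2.97 and 3.46 RPKM to 0.62, 1.49 and 3.01, a log2 fold change of -0.58 (SE 0.16, adjusted p = 0.0305). The medians of these receptors were lower with the high-fat diet, and the ranges of both diets overlapped for all 10 genes (0.628% of all genes tested did not overlap).
Cd68 (-0.35, SE 0.10, adjusted p = 0.0282), Csf1r (-0.43, SE 0.13, adjusted p = 0.0416) and Cd14 (-0.91, SE 0.27, adjusted p = 0.0340) were the other called genes. For Cd14, Con 1 and Con 3 alone lay above the range of the high-fat livers, 1.19 to 2.76 RPKM. Con 2 and all AOS livers lay within that range, so the Cd14 call does not describe the regular diet at large. Timd4 stood next to the threshold (-0.38, SE 0.12, adjusted p = 0.0506), with 1.45, 2.53 and 3.57 RPKM without and 0.83, 1.77 and 2.73 RPKM with the high-fat diet. Cd5l (-0.31, SE 0.17), Adgre1 (-0.16, SE 0.11) and Lyz2 (-0.13, SE 0.12) did not pass. The fitted value was below 0 for all 10 markers in all 25 alternatives tried.

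The number of calls was less firm than the sign. Without Con 3 and AOS 3, the livers that looked like means of their group, 0 of the 10 passed, with Clec4f at -0.51 (adjusted p = 0.0919) and Vsig4 at -0.52 (0.12). Leaving out Con 1, Con 3, AOS 2 or AOS 3 alone left 1 call, that of Clec4f, in each case. Without HFD 3 there were 7 calls, with Timd4 among them (adjusted p = 0.0155). With a single mean for each diet in place of the group means there were 3, and with no filter on low values 2. The count thus turned on single livers of the regular diet. The share of all genes called in these alternatives is not given here. A loss of calls particular to the markers thus cannot be told from a general one.

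**Figure D3:**
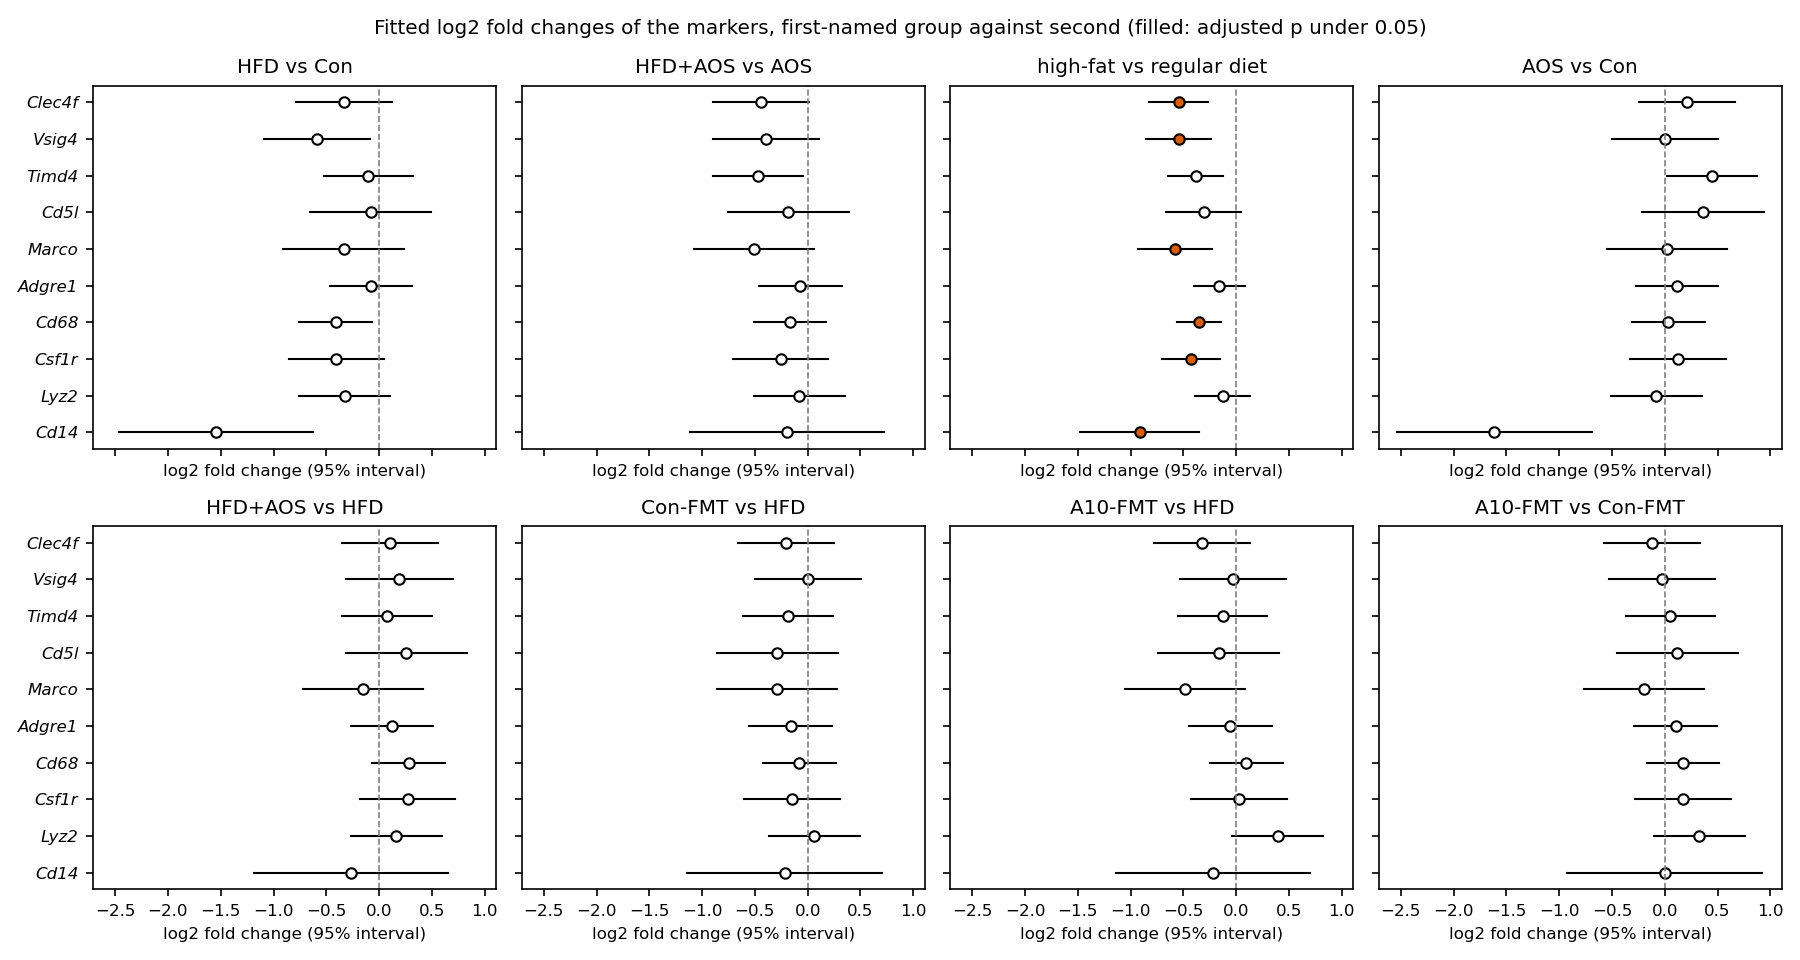
Fitted log2 fold change (x axis) of each marker (y axis) in 8 comparisons, the first-named group against the second, with 95% intervals, filled where the limma adjusted p is under 0.05. Filled points are seen in the panel of high-fat against regular diet (6 genes, from -0.35 for Cd68 to -0.91 for Cd14), and most intervals in the other panels cross 0.

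AOS on the regular diet was compared with Con. Timd4 was 2.19, 1.45 and 2.34 RPKM in Con and 2.72, 2.88 and 3.57 in AOS, so that every AOS liver lay above every Con liver, as was so for 19.5% of all genes tested, with a log2 fold change of 0.45 (SE 0.20, limma adjusted p = 0.300). For the other Kupffer cell genes the values were 0.21 (SE 0.21) for Clec4f, 0.36 (SE 0.27) for Cd5l, 0.0026 (SE 0.24) for Vsig4 and 0.02 (SE 0.27) for Marco. The median of the 10 was 0.07, as was that of all genes tested. By limma 0 of the 10 passed (0.133% of all genes tested), and Timd4 and Cd14 had an unadjusted p under 0.05, against 15.5% of all genes. Timd4 was at 0.44 without Con 3 and AOS 3 (SE 0.25, adjusted p = 0.631).

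On the high-fat diet, HFD+AOS was compared with HFD. The 3 HFD+AOS livers lay close together, with 20.2, 19.8 and 22.2 RPKM for Clec4f and 25.04 to 31.4 RPKM for Cd5l, between HFD 1 and HFD 2 below and HFD 3 above for both genes. The log2 fold changes went from -0.27 for Cd14 (SE 0.43) to 0.28 for Cd68 (SE 0.16), with a median of 0.14. For Lyz2, HFD+AOS lay wholly above HFD, at 15.7 to 16.6 RPKM against 13.8 to 15.1, as did 13.2% of all genes tested. In this comparison 0 of the 10 passed the test, against 8.75% of all genes tested, and 0 had an unadjusted p under 0.05, against 26.2%. Without HFD 3 the log2 fold change of Vsig4 was 0.60 in place of 0.19 and passed the test (adjusted p = 0.0301), and that of Csf1r was 0.58 (0.0774). Whether AOS acted differently with and without the high-fat diet was tested as an interaction. It called 0 of the 10 markers (0.504% of all genes), and Cd14 (log2 difference 1.35, SE 0.61, adjusted p = 0.323) had an unadjusted p under 0.05, as had 14.7% of all genes.

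The transplantations were compared with HFD and with each other. Clec4f was 16.1, 14.6 and 19.2 RPKM in Con-FMT and 14.0, 13.7 and 18.1 in A10-FMT, near HFD 1 and HFD 2 and below HFD 3. Marco was 1.22, 1.61 and 1.28 RPKM in Con-FMT and 1.46, 0.92 and 0.85 in A10-FMT. Timd4 was 1.73, 0.83 and 1.89 RPKM in Con-FMT and 1.71, 1.12 and 1.81 in A10-FMT. Each pair of groups overlapped for these genes.
Against HFD, the log2 fold changes of A10-FMT were -0.32 (SE 0.21) for Clec4f, -0.49 (SE 0.27) for Marco and 0.39 (SE 0.20) for Lyz2, with a median of -0.09 over the 10. Those of Con-FMT had a median of -0.17 and went from -0.29 for Marco to 0.06 for Lyz2. A10-FMT against Con-FMT had a median of 0.08, from -0.20 for Marco (95% interval -0.77 to 0.37) to 0.33 for Lyz2 (-0.10 to 0.76). By limma 0 of the 10 passed in each of the 3 comparisons, against 6.60% of all genes tested for A10-FMT and HFD, 0.00952% for Con-FMT and HFD and 1.68% for A10-FMT and Con-FMT, and 0 had an unadjusted p under 0.05, against 24.5%, 6.63% and 16.4%. The intervals of Clec4f, -0.57 to 0.34, and of Vsig4, -0.53 to 0.47, between the 2 transplantations leave room for differences in either direction.
The HFD livers again decided the sign. Without HFD 3, Clec4f was 0.0015 and Vsig4 0.38 in A10-FMT against HFD, in place of -0.32 and -0.028. Without HFD 1, Marco was -0.90 and passed the test (adjusted p = 0.0117). HFD 1 had the lowest Marco value of all livers (0.62 RPKM).

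Lyz2 went its own way. Its highest level was 30.4 RPKM in A10-FMT 1, against 13.9 and 16.6 in the other A10-FMT livers and at most 21.4 in all others. Lyz1, the neighbouring lysozyme gene (chr10:117287797-117292868, beside Lyz2 at chr10:117277331-117282321, GRCm38), was also highest in that liver, at 2.31 RPKM against 0.78 to 1.67 in the others. The summed level of 7 neutrophil markers was 9.22 RPKM there against 5.16 and 1.77 in A10-FMT 2 and 3, and that of 4 B cell markers 5.42 against 2.42 and 1.11. Of the other 9 markers, 5 were also highest in A10-FMT 1 among the A10-FMT livers (Cd5l, Marco, Adgre1, Cd68 and Cd14), with Cd5l at 22.9 RPKM against 18.3 and 21.2, while Clec4f was at 14.0 RPKM against 13.7 and 18.1. Without A10-FMT 1, the log2 fold change of Lyz2 was 0.07 against HFD and 0.0095 against Con-FMT, in place of 0.39 and 0.33. The part of these other cells in the Lyz2 value was not tested.
Reads of Lyz2 and Lyz1 can be hard to tell apart. Of all stretches of 40 bases in the longest coding transcript of Lyz2, 23.3% are also found in Lyz1, and the authors' alignment reported every hit of a read, so that the 2 values may share reads. Of the 447 coding bases, 22 differ. The first 150 coding bases are shown, from the reference transcripts, with the 14 bases that differ in capitals.
Lyz2: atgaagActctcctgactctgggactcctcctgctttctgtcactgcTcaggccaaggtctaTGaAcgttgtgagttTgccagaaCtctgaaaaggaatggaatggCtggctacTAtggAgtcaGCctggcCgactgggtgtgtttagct
Lyz1: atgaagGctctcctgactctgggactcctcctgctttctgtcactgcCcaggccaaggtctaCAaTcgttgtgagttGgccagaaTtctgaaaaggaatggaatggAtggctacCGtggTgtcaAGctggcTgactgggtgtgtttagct
For Csf1r, 17.9% of such stretches are also found in Hmgxb3, which overlaps it on the opposite strand and was at 2.81 to 4.32 RPKM, and the strand of the reads is not given in the sources used here. The 8 other markers share 0 such stretches with other genes.

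Cd14 was set by 2 control livers. It was 17.4, 1.95 and 10.4 RPKM in Con 1, 2 and 3, and between 1.19 and 2.76 RPKM in all 15 livers of the other groups. Con 2 lay within the range of the other groups, while Con 1 and Con 3 lay above every other liver. The log2 fold change of HFD against Con was -1.54 (SE 0.43, limma adjusted p = 0.124) and that of AOS against Con -1.62 (SE 0.43, adjusted p = 0.127). Without Con 2, the control with low Cd14, these were -2.31 (adjusted p = 0.000151) and -2.38 (adjusted p = 0.000136), and Cd14 then passed the test in both. Without Con 1, the control with the highest Cd14, they were -0.99 (adjusted p = 0.414) and -1.06 (adjusted p = 0.439). Without Con 3 and AOS 3 they were -1.33 (adjusted p = 0.434) and -1.40 (adjusted p = 0.532). Con 3 lay between Con 1 and Con 2 here too.

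By the same measure of likeness, a look made after the Cd14 values had been seen, the genes most like Cd14 over 18 livers were Saa3 (r = 0.94), Hpx (0.92) and Crp (0.91). Over the 16 livers other than Con 3 and AOS 3, these were 0.92, 0.89 and 0.88. Con 1 was then the only liver with Cd14 above 2.76 RPKM and Saa3 above 22.6 RPKM, so that these values rest largely on that liver. Saa3 encodes an acute-phase serum amyloid, Hpx the heme carrier hemopexin and Crp C-reactive protein, all proteins of the acute-phase response. Saa3 was 344 RPKM in Con 1, 22.6 in Con 2 and 195 in Con 3, and between 5.58 and 12.7 RPKM in the other groups. The neutrophil markers summed to 10.4, 3.11 and 7.62 RPKM in the same 3 livers. Lbp, the LPS-binding protein of plasma and also acute-phase, was 122, 37.6 and 83.6 RPKM in Con. The other macrophage markers did not follow Con 1 and Con 3 to this degree, and Con 1 was 1.31 times Con 2 for Clec4f, 1.91 times for Cd5l and 0.944 times for Cd68, against 8.91 times for Cd14.

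**Figure D4:**
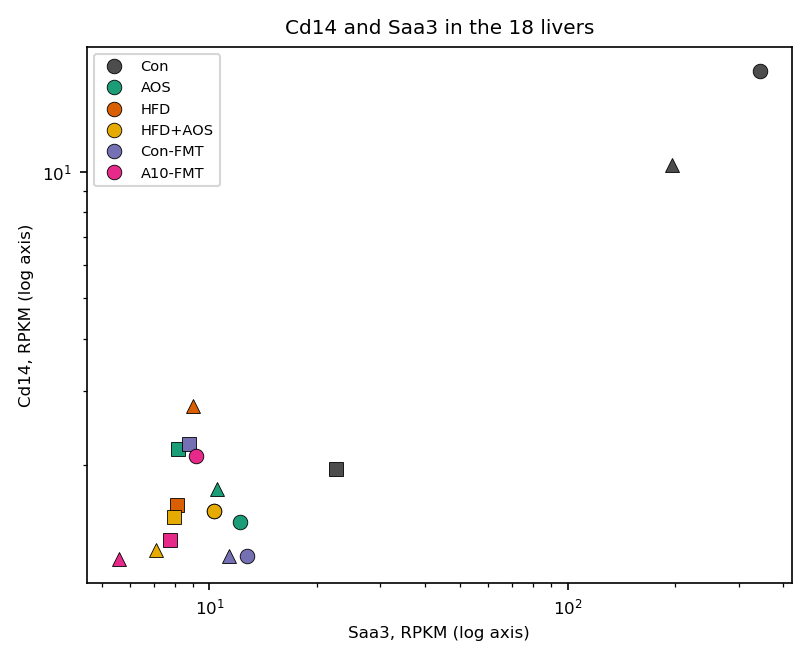
Cd14 (y axis) against Saa3 (x axis) in the 18 livers, both in RPKM on log axes, with a colour for each group and circle, square and triangle for replicates 1, 2 and 3. Con 1 and Con 3 stand alone at the upper right, and Con 2 has a Saa3 of 22.6 RPKM but a Cd14 of 1.95 RPKM within the range of the other groups.

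Further lists of macrophage genes were read beside the markers. Of 18 tested genes used by macrophages and myeloid cells at large, 0 were called in HFD against Con, 16 lay below 0 and the median was -0.30. Fcer1g, a signalling chain of Fc receptors, came closest, at 18.4, 12.4 and 13.8 RPKM in Con and 6.55, 8.95 and 7.85 RPKM in HFD. The groups did not overlap for it (log2 fold change -0.84, SE 0.18, adjusted p = 0.0517), and HFD 3 was not the highest HFD liver. Of all genes tested, 4.67% lay wholly lower in HFD than in Con.
Between all high-fat and regular diet livers, 8 of these 18 genes were called lower, against 5.74% of all genes tested. Fcer1g fell by 0.66 (SE 0.11, adjusted p = 0.00110), C1qb by 0.58 (SE 0.15, adjusted p = 0.0161) and C1qa by 0.53 (SE 0.15, adjusted p = 0.0299), and Spi1, the gene of PU.1, by 0.39 (SE 0.11, adjusted p = 0.0313), on the log2 scale. C1qc, Ctss, Msr1 (a scavenger receptor) and Aif1 (an actin-binding protein of macrophages) were also called lower. Without Con 3 and AOS 3, the pooled comparison called 1 of the 18, and the share of all genes called in that fit is not given here.

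Of 12 further Kupffer cell genes tested, 2 were called lower in the pooled comparison, against 5.74% of all genes tested. They were Cd163, the scavenger receptor for hemoglobin bound to haptoglobin (-0.45, SE 0.09, adjusted p = 0.00336), and Clec1b, a C-type lectin receptor (-0.30, SE 0.09, adjusted p = 0.0351). Cd163 went from a median of 1.07 RPKM to 0.495. It reached an RPKM of 1 in Con 1, Con 3, AOS 1 and AOS 3 alone, and at most 0.84 with the high-fat diet. It thus passed the filter only through livers of the regular diet, where it was higher, and its call cannot be read apart from the filter. The list had 0 calls in each of the 6 pairwise comparisons planned. Spic, the factor of macrophages that recycle iron, was 0.49, 1.20 and 0.48 RPKM in HFD and 1.61, 1.02 and 2.04 in HFD+AOS (log2 fold change 0.57, SE 0.19, adjusted p = 0.0700). C6, a complement component that hepatocytes also make, was at -0.88 (SE 0.27, adjusted p = 0.159) in AOS against Con, and Hpgd, which degrades prostaglandins, at 0.81 (SE 0.27, adjusted p = 0.183).

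Of 7 tested genes of recruited and lipid-associated macrophages, Ly6c2, a marker of inflammatory monocytes, was the one called in a planned comparison. It was 1.57, 0.53 and 0.66 RPKM in HFD and 3.78, 2.07 and 2.36 RPKM in HFD+AOS, so that the groups did not overlap (log2 fold change 0.97, SE 0.24, adjusted p = 0.0243). Of all genes tested, 8.75% were called in that comparison and 13.2% lay wholly higher in HFD+AOS. Spp1 (osteopontin) was at -0.72 (SE 0.21, adjusted p = 0.133) in HFD against Con. In the pooled comparison Cd9, a tetraspanin, and Fabp5, a fatty acid-binding protein, were called lower, by 0.70 (SE 0.19, adjusted p = 0.0264) and 1.12 (SE 0.29, adjusted p = 0.0200) on the log2 scale. Neither is made by macrophages alone. They were 2 of the 7 tested genes of the list, against 5.74% of all genes tested called lower. Cd9 had means of 27.5 RPKM in Con and in AOS, 23.15 in HFD, 23.1 in Con-FMT, 13.7 in HFD+AOS and 11.9 in A10-FMT. Fabp5 was 44.7, 61.9 and 58.2 RPKM in Con and 22.9, 78.3 and 53.1 in HFD. HFD and Con overlapped for both genes, so these pooled calls do not describe HFD against Con.

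Of the signals that keep Kupffer cells in place, Csf1, a ligand of Csf1r, was 2.67, 2.21 and 2.80 RPKM in Con-FMT and 3.91, 3.28 and 2.95 RPKM in A10-FMT. Those groups did not overlap, but the gene did not pass the test (log2 fold change 0.30, SE 0.10, adjusted p = 0.157). In that comparison 754 of all 10507 genes tested lay wholly higher in A10-FMT. Il34, the other ligand, was low, at 0.41 to 1.46 RPKM in all livers. Notch1, a receptor of the Notch pathway that has a part in Kupffer cell identity, was called lower in A10-FMT than in HFD (-0.35, SE 0.09, adjusted p = 0.0357). It was 1 of 13 tested genes of the list, against 6.60% of all genes tested called there. The call was lost with no filter, with these groups alone in the fit and without Con 3 and AOS 3. Smad4, which carries TGF-beta and BMP signals, was at 0.24 (SE 0.08, adjusted p = 0.187) in AOS against Con. In the pooled comparison 2 of the 13 tested genes were called, Csf2ra and Csf2rb, both lower, against 5.74% of all genes tested called lower and 12.9% in either direction.

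Of 10 tested genes of LPS sensing, the pathway of Cd14, 0 were called in the 6 pairwise comparisons planned. Tlr4, the LPS receptor, was too low to be tested, at 0.12 to 0.35 RPKM, and its partner Ly96 was at 2.87 to 8.37 RPKM. In the pooled comparison Lbp was called lower (-0.65, SE 0.19, adjusted p = 0.0377) and Nfkbia, the inhibitor of NF-kappaB, higher (0.33, SE 0.10, adjusted p = 0.0412). That is 2 of 10, against 12.9% of all genes tested called in either direction. Lbp was at 22.8 to 62.9 RPKM with the high-fat diet, and Con 1 and Con 3 alone lay above this range. Nfkbia was at 16.4 to 29.1 RPKM with the high-fat diet, and Con 1 and Con 3 alone lay below that range. Con 2 and all AOS livers lay within both ranges, so neither call describes the regular diet at large. Ticam1, an adaptor of Toll-like receptors, was at 0.36 (SE 0.13, adjusted p = 0.202) in HFD against Con.
Of 10 tested cytokines and chemokines, Il18 was called higher in HFD+AOS and in A10-FMT, each against HFD. It was 7.05, 8.57 and 8.01 RPKM in HFD, 14.7, 12.2 and 16.3 in HFD+AOS (log2 fold change 0.79, SE 0.14, adjusted p = 0.00367) and 11.6, 11.7 and 12.7 in A10-FMT (0.55, SE 0.14, adjusted p = 0.0297). Every HFD+AOS and A10-FMT liver lay above every HFD liver, and both comparisons use the same 3 HFD livers. Among all 10507 genes tested, 13.2% lay wholly above HFD in HFD+AOS and 1052 genes did so in A10-FMT. The shares called were 8.75% for HFD+AOS and 6.60% for A10-FMT, each against HFD. Cxcl9, an interferon-induced chemokine, was at 0.61 (SE 0.19, adjusted p = 0.159) in AOS against Con. Cxcl1, a chemokine for neutrophils, was the 1 listed gene called in HFD+AOS against AOS (1.54, SE 0.42, adjusted p = 0.0451). It was 1 of 10 tested genes of its list, and 5.44% of all genes tested were called in that added comparison. Ccl9 and Ccl24, both chemokines, were called lower in the pooled comparison, and Ccl9 fell by 0.28 on the log2 scale (SE 0.08, adjusted p = 0.0217). That is 2 of 10 tested genes, against 5.74% of all genes tested called lower. Ccl9 had means of 34.8 RPKM in Con, 31.2 in AOS, 31.4 in HFD, 28.1 in A10-FMT, 24.6 in Con-FMT and 24.4 in HFD+AOS. HFD was near AOS, so the pooled call of Ccl9 does not describe the high-fat diet by itself.

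The macrophage markers were set beside those of other liver cells. The summed level of the 10 macrophage markers was 81.8 to 135.5 RPKM in Con, 99.55 to 128.3 in AOS, 64.6 to 123.2 in HFD, 90.1 to 96.4 in HFD+AOS, 68.05 to 84.7 in Con-FMT and 66.7 to 91.8 in A10-FMT. That of 8 sinusoidal endothelial markers was 54.9 to 71.3 RPKM over all livers. That of 8 stellate cell markers was 75.7 to 87.1 in Con and 102.2 to 109.4 in A10-FMT. Blood genes were at 1049 to 1633 RPKM in HFD+AOS, 2959 to 3837 in AOS and 1535 to 2958 in Con, so that the AOS livers were higher both in blood genes and in macrophage markers than the HFD+AOS livers. The part of blood and of other cells in the marker values was not tested. The 5 dendritic cell markers summed to at most 0.98 RPKM and 9 T and NK cell markers to at most 4.82 RPKM.

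**Figure D5:**
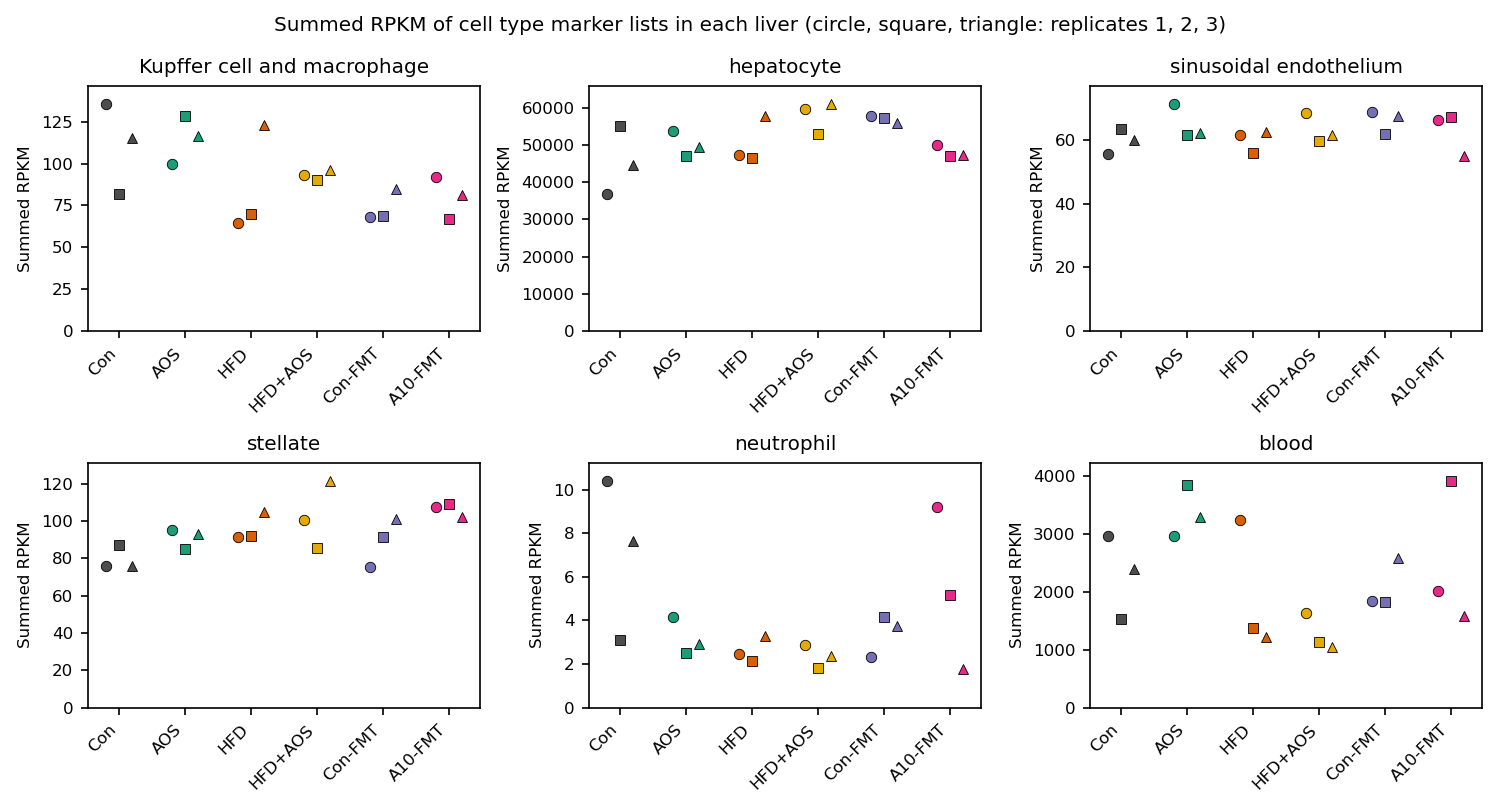
Summed RPKM (y axes from 0, each with its own scale) of 6 lists of cell type markers in each liver, by group (x axis), with circle, square and triangle for replicates 1, 2 and 3. Macrophage markers in HFD 3 reach 123 RPKM against 64.6 and 69.7 in HFD 1 and HFD 2, while the endothelial sums stay between 54.9 and 71.3 RPKM, and neutrophil markers are highest in Con 1 (10.4 RPKM) and A10-FMT 1 (9.22 RPKM).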

How the data were processed

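Liver RNA of 18 mice, 3 in each of 6 groups named by the labels, was sequenced on an Illumina platform. The authors mapped reads to reference genes with SOAPaligner, reporting all hits, and deposited RPKM values rounded to 2 decimals. The labels' processing notes also name Bowtie 0.12.2 and the build mm10, with no role. The annotation and strand are not given in the sources used here. Read numbers, which DEGseq needs, were not beside the values, so depth was estimated from the steps between low values.

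Values were log2(RPKM + 1), which understates changes of low genes. A gene was tested where 3 or more livers had an RPKM of 1 or more, which held for 10507 of 17109 genes above 0. A mean for each group was fitted to all 18 livers with lmFit and a trended eBayes (limma 3.58.1, R 4.3.3). Tests were two-sided, adjusted after Benjamini and Hochberg over all genes within each comparison, and called at an adjusted p under 0.05. p-values measure the spread between livers, and the labels name no batch. Con 3 and AOS 3 were counted as separate livers, though each lay near a weighted mean of the other livers of its group. The p-values may thus be too small. Same-numbered livers were not paired (correlations of deviations -0.177 to 0.225).

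The markers, lists and rule for naming genes (all 10 markers, the 3 smallest p of each list, fixed ligands and receptors, the most alike genes) were chosen with earlier results of these data known. A gene and a motif of these lists are not reported here. The comparisons of HFD+AOS with AOS and of all high-fat with regular diet livers, the genes most like Cd14, and the further genes called in the pooled comparison were chosen after values were seen. Setting Lyz2 and Cd14 apart in the correlations was not planned. Promoters and transcripts were from RefSeq and GENCODE on GRCm38, and 7 of the 10 markers had a promoter that was read. Tables and figures were made in Python 3.11.15 (matplotlib 3.10.9, numpy 2.4.6, pandas 2.3.3). The alternatives set library medians or library sums of RPKM equal, or used a pseudocount of 0.1, no filter, the groups compared alone, a replicate block, or fewer livers (without Con 3 and AOS 3, or without each in turn).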

Additional observations from a re-analysis of the deposited data

How the results depend on the processing

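The count of markers called was 0 in each planned comparison under every change of scaling, pseudocount, filter, groups in the fit and replicate block, and without the third Con and AOS livers. Leaving out single livers gave 0 to 1 calls in HFD against Con (1 without Con 2, Cd14, and 1 without HFD 3, Vsig4), A10-FMT against HFD (1 without HFD 1, Marco), AOS against Con (1 without Con 2, Cd14), HFD+AOS against HFD (1 without HFD 3, Vsig4) and the difference of AOS effects between diets (1 without Con 2, Cd14). HFD+AOS against AOS had 2 calls with the groups compared alone. The comparison of all high-fat with regular diet livers, 6 calls, had 2 with no filter, 0 without the third Con and AOS livers, 3 with 1 mean for each diet and 1 to 7 with single livers left out. With the replicate block it had 7, and the block changed no call of a marker in the planned comparisons. The shares of all genes called in the alternatives of the pooled comparison are not given here. Notch1 and Il18, called in A10-FMT against HFD, were not called with no filter, with the groups compared alone or without the third Con and AOS livers, and Ly6c2 in HFD+AOS against HFD was not called with the groups compared alone. The cause of these changes was not tested, apart from the fewer livers or added genes in each fit. Of 90 fitted values of a marker in a comparison, 40 changed sign under some alternative, all of them in comparisons where the marker was not called. Precision was limited by 3 livers a group, with an SE between groups from 0.16 (Cd68) to 0.43 log2 units (Cd14), and by few reads for Marco, Timd4 and Cd14, for which counting alone gave a CV of 25.9%, 21.1% and 20.2% in the lowest liver.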
